A study of Saccharomyces cerevisiae with 24 samples.

Results

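The 33 genes described here encode the mannoproteins of the Saccharomyces cerevisiae cell wall and the enzymes that make and remodel its glucan. They were taken by name from a fixed list, without the flocculins. The list was chosen with earlier results of these data known, so shares set beside all genes are descriptions. All 33 were found among the 6000 nuclear protein-coding genes that had a full promoter window, the 500 bp before the start codon. By role they comprised 6 mannoproteins held by a GPI anchor remnant, 5 mannoproteins of the TIR and DAN group, 4 PIR proteins, 11 glucan transferases and glucanases, 4 SUN-family and other secreted wall proteins, and 3 genes of glucan synthesis. Chromatin was assayed by FAIRE, which enriches DNA that escapes crosslinking to protein, in giant colonies of the haploid laboratory strain BY4742. The colonies had grown for 3 days at 28 °C on agar with yeast extract, glycerol, ethanol, a trace of glucose, calcium chloride, uracil and the pH dye bromocresol purple. Material was scraped off with a spatula in amounts of 4, 20, 100 or 500 mg, each with 3 biological replicates, and each FAIRE library was called against its own input library of uncrosslinked DNA. All 4 amounts shared the strain, medium and age, and each carried the strain's auxotrophic deletions. The amounts were set up to adapt the assay to few cells, as the series title states.

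The yeast wall is a mesh of beta-glucan with some chitin, covered by mannoproteins that are secreted and then bound covalently to the glucan. GPI mannoproteins are joined to the glucan through a remnant of their lipid anchor, and PIR proteins are joined to it directly through their repeats. Enzymes of the GAS, CRH and SCW families and the exoglucanases cut and rejoin the polymers as the wall grows, and wall stress, anaerobiosis, cold and stationary phase each change which mannoproteins are made.

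The 12 peak lists held 4180 to 6439 peaks and covered 1742 to 2968 kb. In 4 mg replicate 2, 4 mg replicate 3 and 100 mg replicate 1 the FAIRE pileup recovered from the lists did not come out as whole numbers, and the reads per bp derived from it were 0.236 to 0.239 against 0.250 in the other 9 libraries. How these lists were scaled is not given, so the lower value need not be a lower depth. No peak lay over LEU2, LYS2 or URA3, marker genes deleted in the strain, in any library, whereas HIS3, whose deletion in this strain is internal, had a peak in all 12. A library pools many colony cells, so a site open in few cells and a site partly open in all cells cannot be told apart.

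Wall gene promoters were often marked far upstream of the start codon and never close to it. A promoter was counted as marked when at least 1 peak summit lay in its 500 bp window. SPI1, CWP1, CCW14, TIR3, CIS3, SCW4, EXG1 and SIM1 were marked in all 12 libraries, which is 8 of 33 wall genes (24.2%), beside 9.73% of all genes. No library marked the promoters of 16 wall genes (48.5%), beside 58% of all genes. The other 9 genes were marked in some libraries, TIR1 and GAS1 in 11, CRH1 in 8, TIR4 in 5, GAS5 in 4, CWP2 in 3, SCW10 in 2, and UTR2 and TOS1 in 1 each. A peak of any summit position overlapped the window by 50 bp or more in all 12 libraries at 17 of 33 wall genes, beside 23.6% of all genes. When the window was shortened to 250 bp, all 33 wall genes were without a summit in every library, beside 83.8% of all genes.

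**Figure D1:**
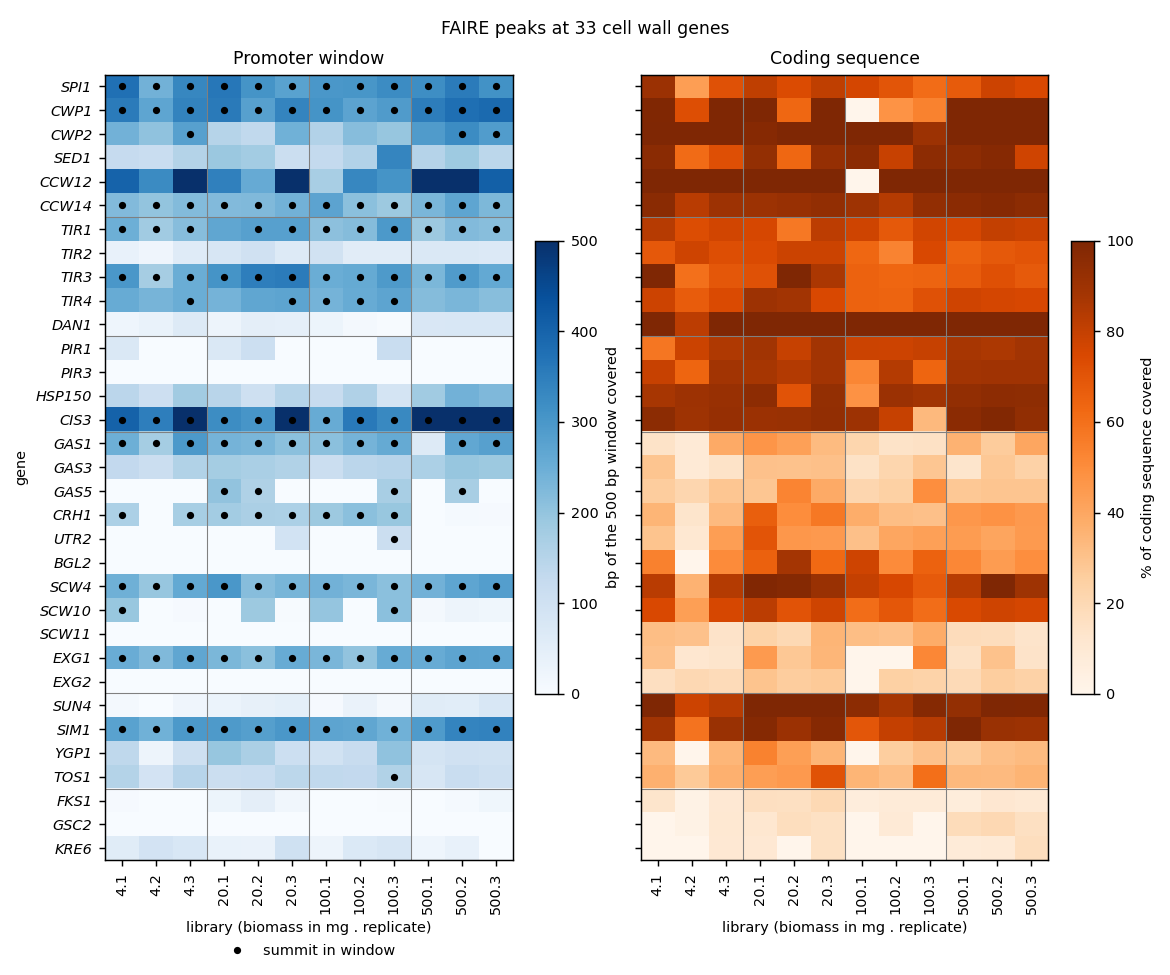
Left, bases of the 500 bp promoter window covered by peaks (blue, 0 to 500 bp) with a dot where a summit lay in the window; right, percent of the coding sequence covered (orange, 0 to 100%). Rows are the 33 genes grouped by role and columns are the 12 libraries in order of biomass (4, 20, 100 and 500 mg, 3 replicates each). The coding sequences of the mannoproteins and PIR proteins are dark in nearly every library, and those of FKS1, GSC2 and KRE6 at the bottom are pale.

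Among the GPI mannoproteins, SPI1, a small wall protein made in stationary phase, had the highest median fold enrichment at a promoter summit among the 8 genes marked throughout. Its gene lies on chromosome V at 468370 to 468816 on the plus strand (build R64), and its window at 467870 to 468369. The summit lay 366, 354 and 351 bp upstream of the start codon at 4 mg, 361, 339 and 358 bp at 20 mg, 366, 353 and 366 bp at 100 mg, and 371, 359 and 367 bp at 500 mg. These 12 positions had an SD of 8.97 bp and the biomasses overlapped. The authors' fold enrichment at the SPI1 summit had a median of 3.65 over the 12 lists (range 1.76 to 4.72), rank 6 among the 584 promoters marked in all libraries, and its peak had a median percentile of 96.2 within its own list.

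CWP1 and CWP2 encode abundant mannoproteins and lie next to each other on chromosome XI on the plus strand, CWP2 at 259253 to 259531 and CWP1 at 261132 to 261851, with 1600 bp between them. CWP1 was marked in every library, with a summit 337, 332 and 346 bp upstream at 4 mg, 320, 367 and 317 bp at 20 mg, 345, 333 and 368 bp at 100 mg, and 319, 322 and 321 bp at 500 mg. The 500 mg positions were the tightest and lay closer to the start codon than all those at 4 and 100 mg, while the 20 mg positions reached on both sides of them. Its median fold enrichment was 3.37, rank 44 of 584. CWP2 was marked in 4 mg replicate 3 and 500 mg replicates 2 and 3, and all 3 summits lay inside the coding sequence of YKL097C, a neighbouring reading frame whose window shares 339 bp with that of CWP2. The next annotated gene upstream of CWP2, YKL096C-B, is only 30 bp away and reads in the other direction.

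CCW14, an inner-layer wall glycoprotein gene on chromosome XII (903724 to 904440, plus strand), was also marked in all 12 libraries. Its summits stood 410, 386 and 421 bp upstream at 4 mg, 406, 427 and 402 bp at 20 mg, 380, 408 and 400 bp at 100 mg, and 383, 407 and 416 bp at 500 mg, and the biomasses overlapped. All 12 of those summits lay inside the coding sequence of the upstream gene ECM19, whose end is 319 bp from the CCW14 start, and the median fold enrichment of 2.34 was rank 556 of 584. SED1, which encodes a major structural protein of the stationary-phase wall, and CCW12, which encodes an abundant mannoprotein of growing walls, had no summit in their windows. Peaks nevertheless overlapped both windows in all 12 libraries. The strongest summit upstream of SED1 stood 539 to 693 bp from its start codon (median 565.5 bp). CCW12 (chromosome XII, 369697 to 370098, minus strand) was covered over 500 of 500 window bases in 4 mg replicate 3, 20 mg replicate 3 and 500 mg replicates 1 and 2, and over 171 bp in 100 mg replicate 1.

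The TIR and DAN mannoproteins belong to a family that is induced by cold and by lack of oxygen. TIR3, on chromosome IX at 333727 to 334536 on the plus strand, was the only one of the 5 marked in all 12 libraries. Its summits stood 323, 372 and 355 bp upstream at 4 mg, 324, 345 and 366 bp at 20 mg, 367, 342 and 314 bp at 100 mg, and 325, 330 and 339 bp at 500 mg, and the biomasses overlapped. TIR1 and TIR4 had a summit upstream in every library, but it straddled the edge of the window. For TIR1 its strongest summit stood between 437 and 558 bp from the start codon (median 454.5 bp), and 20 mg replicate 1 was the library in which it fell outside. The strongest TIR4 summit stood between 339 and 558 bp (median 514 bp), so its count of 5 marked libraries depended on the window length. TIR2, which lies beside TIR4 on chromosome XV and is read in the opposite direction, had its strongest summit 556 to 809 bp upstream in all 12 libraries. DAN1, on chromosome X at 708811 to 709707 on the minus strand, had no summit in any library within its 2547 bp of upstream intergenic sequence.

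Of the PIR proteins, CIS3 alone was marked in all 12 libraries. CIS3 (chromosome X, 122265 to 122948, minus strand) had summits 371, 350 and 312 bp upstream at 4 mg, 345, 302 and 334 bp at 20 mg, 406, 329 and 354 bp at 100 mg, and 308, 291 and 317 bp at 500 mg, an SD of 32.6 bp over the 12. Peaks filled all 500 bp of its window in 4 mg replicate 3, 20 mg replicate 3 and all 3 libraries at 500 mg. The neighbouring HSP150, which encodes a PIR protein induced by heat, had a summit 514 to 541 bp upstream in all 12 libraries, just beyond its window. PIR1 and PIR3 lie head to head on chromosome XI and share 1581 bp of intergenic sequence, in which a summit was called in only 4 of 12 libraries. Their windows held no summit, and no peak touched that of PIR3.

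Among the enzymes that cut and rejoin glucan, SCW4 and EXG1 were marked throughout. SCW4 encodes a glucanase-like wall protein on chromosome VII (1048798 to 1049958, minus strand). Its summits stood 471, 441 and 430 bp upstream at 4 mg, 467, 438 and 449 bp at 20 mg, 426, 476 and 449 bp at 100 mg, and 442, 456 and 456 bp at 500 mg, with a median fold enrichment of 3.33 (rank 57 of 584). By −log10 p its peak stood highest of the 8, at a median percentile of 99.2 within its list. The 4 sets of positions overlapped. EXG1, the major exoglucanase gene (chromosome XII, 728955 to 730301, plus strand), had summits 465, 463 and 448 bp upstream at 4 mg, 453, 427 and 460 bp at 20 mg, 463, 479 and 456 bp at 100 mg, and 447, 424 and 424 bp at 500 mg. The EXG1 positions at 500 mg were the nearest to the gene on average, at 432 ± 13.3 bp, and those at 100 mg the farthest, at 466 ± 11.8 bp (SD, n = 3 each). GAS1, the main glucan-elongating transferase of vegetative cells, was marked in all libraries but 500 mg replicate 1, at a median of 384 bp, and GAS5 in 4. SCW10, a close relative of SCW4, had a summit upstream in all 12 libraries, but at a median of 715 bp, so its window held one in only 2. GAS3, BGL2, SCW11 and EXG2 were never marked, and no peak touched the windows of BGL2, SCW11 and EXG2 in any library.

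SIM1, a SUN-family gene (chromosome IX, 128151 to 129581, plus strand), had the nearest summits of the 8. They stood 311, 285 and 310 bp upstream at 4 mg, 294, 267 and 335 bp at 20 mg, 337, 293 and 262 bp at 100 mg, and 305, 300 and 294 bp at 500 mg, which overlapped between biomasses. Its relative SUN4 had no summit in 1258 bp of intergenic sequence. YGP1, a secreted glycoprotein made when nutrients run short, had its strongest summit 554 to 644 bp upstream in all 12 libraries, and that of TOS1, a glucan-bound wall protein, stood 496 to 593 bp upstream. FKS1, a catalytic subunit of glucan synthase, had one 608 to 895 bp upstream in all 12. Its relative GSC2, used in sporulation and on poor carbon sources, had one in 5 libraries at a median of 755 bp, and KRE6, needed for the branched glucan, in 1 library.

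The positions of the 8 constant summits repeated about as closely as those of other promoters. Their median SD over the 12 libraries was 17.8 bp, beside 16.8 bp for all 584 promoters marked in every library. Their median distances from the start codon lay between 297 and 454.5 bp (median 350.2 bp), beside 321.5 bp for the 584. Their median fold enrichment was 2.86, beside 2.90.

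**Figure D2:**
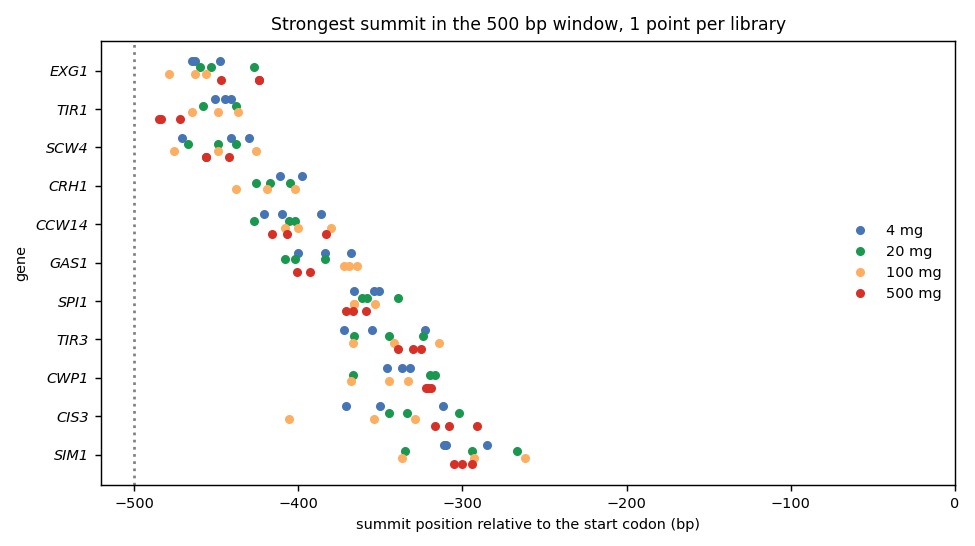
Position of the strongest summit in the 500 bp window (x axis, bp from the start codon) for the 11 genes marked in at least 8 libraries, 1 point per library, coloured by biomass; the dotted line is the far edge of the window. Every summit lies at least 262 bp upstream, and SPI1 has the tightest set.

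Long intergenic regions were common among the wall genes. The distance from the start codon to the next annotated gene upstream had a median of 903 bp in the 33 wall genes (range 30 to 2728 bp), beside 423 bp over all genes, and it exceeded 500 bp in 26 wall genes (78.8%), beside 40.3% of all genes. When a summit anywhere in that distance was counted, a measure chosen after seeing the data, 16 of 33 wall genes had one in all 12 libraries, beside 12% of all genes. Among genes with more than 500 bp of upstream intergenic sequence it was 15 of 26 wall genes, beside 26.7%. Length was not matched further within this set, in which the median over all genes was 751.5 bp. The longer search added SED1, TIR1, TIR2, TIR4, HSP150, SCW10, YGP1, TOS1 and FKS1 and lost CCW14, whose summits lie in ECM19. At SCW10 and TOS1 the strongest summit lay nearer to the neighbour that is read the other way, a median of 212 bp before the start codon of FKS3 and 113 bp before that of YSY6, and the windows of these neighbours were marked in 11 and 12 libraries. GAS5 was similar, with summits a median of 440 bp from its start codon and 218 bp from that of SIL1, and both windows were marked in 4 libraries. The KRE6 summit lay 10 bp from a tRNA gene. The GSC2 summits lay a median of 40 bp from the upstream gene IMO32. The window of NAG1, which shares 37 bp with that of GSC2, was marked in 11 libraries. Which gene the GSC2 summits belong to was not tested.

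Peaks over the coding sequence were also more frequent at wall genes than at the average gene. A peak overlapped the coding sequence by at least 50 bp in all 12 libraries at 25 of 33 wall genes (75.8%), beside 34.5% of all genes. At 500 mg all 33 wall genes had such a peak in each replicate, beside a mean of 54.7% of all genes. The 8 exceptions were CWP1, CCW12, BGL2 and EXG2, each without a peak in 1 library, EXG1 and YGP1 in 2, GSC2 in 3 and KRE6 in 6. In the 9 libraries with whole recovered pileups it was 30 of 33, beside 40.9% of all genes. Among genes of 279 to 1689 bp, the lengths of the 30 wall genes other than KRE6, FKS1 and GSC2, it was 24 of 30 wall genes, beside 32.9% of genes of that length. The count rested on weaker peaks in part. With the 3000 strongest peaks of each list it was 3 of 33, TIR2, DAN1 and SUN4, beside 12% of all genes, and with peaks of a −log10 q of 5 or more it was 14 of 33, beside 24%.

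The mean percent of the coding sequence inside peaks had a median of 72.4% over the 33 wall genes, beside 11.9% over all genes and 14.1% over genes of 279 to 1689 bp. Wall genes and all genes had similar lengths, with medians of 1170 and 1201.5 bp. At least 50% of the coding sequence was covered in all 12 libraries at 12 wall genes (36.4%), beside 8.43% of all genes, and at 12 of 30 wall genes within the length range, beside 11.4%. With the 3000 strongest peaks of each list, the median of the mean coverage was 56.9% over the wall genes and 2.31% over all genes. Coverage of at least 50% in all 12 libraries was then found at 3 of 33 wall genes, beside 3.23% of all genes. The 50% limit was chosen after seeing the data. With all peaks, the 12 were CWP2, SED1, CCW14, TIR1, TIR2, TIR3, TIR4, DAN1, PIR1, PIR3, SUN4 and SIM1. Of these SED1, TIR2, DAN1, PIR1, PIR3 and SUN4 never had a summit in the promoter window, and such a pairing was found at 6 of 33 wall genes, beside 3.02% of all genes.

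**Figure D3:**
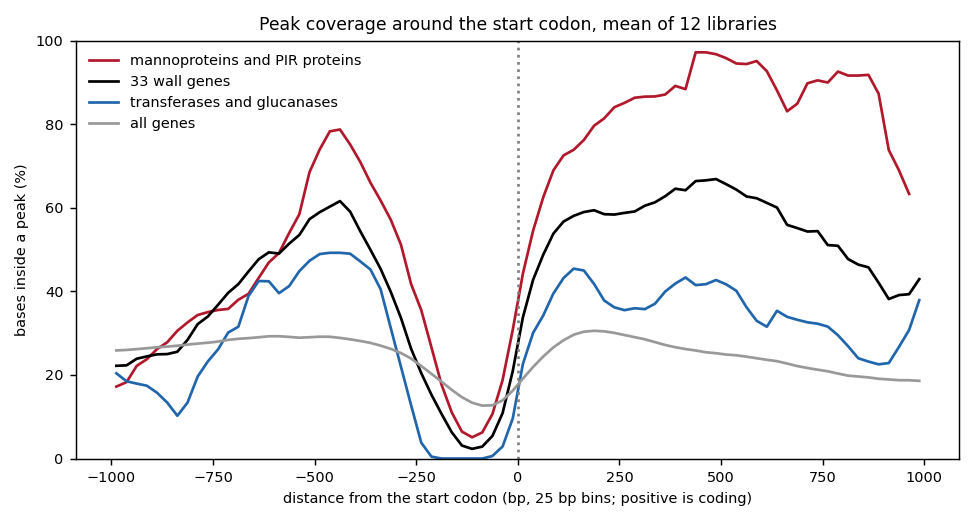
Percent of bases inside a peak (y axis, mean of 12 libraries) in 25 bp bins from 1000 bp upstream to 1000 bp into the coding sequence (x axis), for the mannoproteins and PIR proteins (n = 15), the 33 wall genes, the transferases and glucanases (n = 11) and all genes. In each wall gene line coverage is high before 250 bp upstream, dips near the start codon and is high again in the coding sequence; bins with fewer than 5 genes long enough are not drawn.

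Seen along the gene, the wall genes had 2 covered stretches with a gap between them. From 500 to 250 bp upstream 48.9% of wall gene bases lay inside a peak, beside 27.4% for all genes. In the 250 bp next to the start codon it was 9.81% for wall genes, beside 16.1% for all genes. In the first 250 coding bases it was 52.9%, beside 27.1%, and from 250 to 500 bp into the gene 63.1%, beside 27.2%. The mannoproteins and PIR proteins reached 90.1% in that last stretch, and the transferases and glucanases 39.5%. These are descriptions of the peak lists, and no test was made over the genes as a group.

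Coding coverage differed between the roles. The 6 GPI mannoproteins had a median of 88.3%, the 5 TIR and DAN genes 75.1%, the 4 PIR genes 83.9%, the 4 SUN and other secreted proteins 63.6%, the 11 transferases and glucanases 31.5%, and the 3 glucan synthesis genes 10.0%. The last 3 are long, 2163 to 5688 bp, so a peak of given width fills less of them. All 5 TIR and DAN genes were covered by at least 50% in every library, and so was none of the 11 transferases and glucanases.

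The broadest coverage was at CWP2, with 99.0 ± 2.82%, and at DAN1, with 98.5 ± 5.21% (SD, n = 12 libraries each). DAN1 was covered over 100% of its 897 bp in every library except 4 mg replicate 2, where it was 81.9%, and its median peak was 984.5 bp wide. SUN4 was close behind at 94.5 ± 7.67%, with a peak of 1258.5 bp in the median over a gene of 1263 bp. At CWP2 1 peak held nearly all of the reading frame in each library, and at DAN1 in each but 4 mg replicate 2, where 2 summits were called. SUN4 was covered by peaks with 2 summits in 4 mg replicates 2 and 3, 100 mg replicate 2 and 500 mg replicate 1, and by 1 peak in the other 8. The summit of the main peak lay at a median of 130.5 bp into CWP2, 455.5 bp into DAN1 and 790.5 bp into SUN4. CCW12 was covered over 100% in 11 libraries and over 0% in 100 mg replicate 1, the library with the fewest peaks. In the libraries where its window was filled, the same wide peak covered the CCW12 coding sequence, which held no summit.

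Among the transferases and glucanases SCW4 stood highest at 82.2 ± 17.6%, its relative SCW10 followed at 70.2 ± 10.7% and BGL2 at 54.9 ± 21.4%. The other 8 lay between 21.1% at EXG2 and 41.1% at CRH1, the gene of a transglycosylase that links chitin to glucan. BGL2 ranged from 0% in 4 mg replicate 2 to 87.7% in 20 mg replicate 2. FKS1 was covered over 10.7 ± 4.79%, GSC2 over 10.0 ± 7.60% and KRE6 over 5.83 ± 6.58%. The TIR and DAN genes and the PIR genes each have similar relatives with repeats, and the handling of reads with several map positions is not given in the sources, so coverage may be shared between such copies.

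Most other wall-related genes were covered less. Of 98 genes of chitin synthesis, wall integrity signalling, branched-glucan assembly, protein mannosylation, other wall proteins and proteases, and regulators of wall protein genes, 7 (7.14%) were covered by at least 50% in all 12 libraries, beside 8.43% of all genes, and 6 (6.12%) had a promoter marked in all 12, beside 9.73%. Of the 7, 4 were among the 16 other wall proteins and proteases (25%), a higher share than over all genes. Their median coding coverage by list ran from 9.82% for branched-glucan assembly to 31.3% for the other wall proteins and proteases, close to the 31.5% of the transferases and glucanases above. Promoters marked in all libraries were those of the chitin synthase genes CHS1 and CHS3, of BIG1, of the mannosyltransferase genes MNN1 and OCH1, and of EGT2. The highest median fold enrichment among them was 3.26 at MNN1, and coding coverage of the 6 was 24.3% or less.

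With biomass, the share of wall gene promoters marked moved little. The 4 mg libraries averaged 35.4 ± 4.63%, those of 20 mg 35.4 ± 1.75%, those of 100 mg 40.4 ± 7.0% and those of 500 mg 32.3 ± 4.63% (SD, n = 3 each), while for all genes it was 22.8%, 26.0%, 24.4% and 21.8% in the same order. Set against 500 mg, the difference was 3.03 percentage points for 4 mg, 3.03 for 20 mg and 8.08 for 100 mg, of the order of the spread between replicates. The highest value was 48.5% in 100 mg replicate 3, which also marked the most promoters of all genes, 29.3%. Without 500 mg replicate 1 the differences were 0.505 points for 4 mg, 0.505 for 20 mg and 5.56 for 100 mg, and 4 mg differed by 1.01 points when its replicate 3 was left out. Without 100 mg replicate 3 the difference for 100 mg was 4.04 points.

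**Figure D4:**
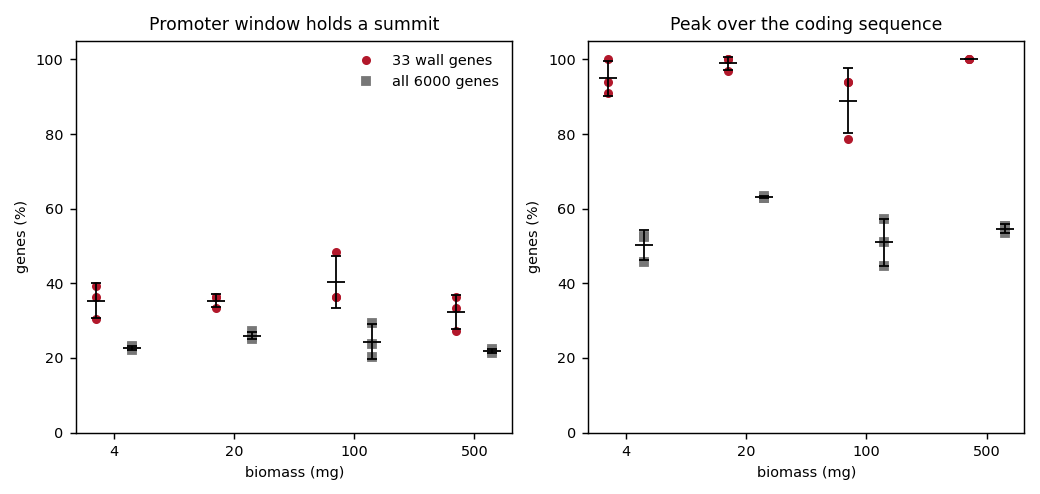
Percent of the 33 wall genes (red circles) and of all 6000 genes (grey squares) with a summit in the promoter window (left) and with a peak of at least 50 bp over the coding sequence (right), by biomass in mg; points are libraries and bars the mean ± SD of 3. Wall genes lie above all genes in every library in both panels.

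Gene by gene, no wall gene passed adjustment for a difference between the 4 biomasses. Each measure was tested by an exact permutation test over all assignments of the libraries to 4 groups of 3, with Benjamini-Hochberg adjustment over every gene tested. In the marking test a promoter marked in 1, 2, 4, 8 or 11 libraries could not reach an unadjusted p under 0.05. This held for TIR1, GAS1, UTR2, TOS1, SCW10, GAS5 and CRH1, so those results were set in advance. Over the 1935 promoters tested for marking, the smallest unadjusted p was 0.00649 by the exact permutation test. Adjustment could call a promoter at that value only if many shared it, and 47 lay under 0.05. So the adjusted marking test could not show whether a wall gene differed. For promoter marking 0 of 9 wall genes had an unadjusted p under 0.05, beside 2.43% of all genes tested. For window coverage it was 8 of 28, beside 18%, and after adjustment 0 of 28, beside 0% of 3683 genes, where the smallest adjusted p was 0.0797 by the same exact permutation test. For coding coverage it was 7 of 33, beside 27.6%, and for summit position 1 of 8, beside 6.16%. After adjustment neither of these held a gene either, and the smallest adjusted values of the exact permutation tests were 0.0560 and 0.152.

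CRH1 had the lowest unadjusted p of a coding sequence and a promoter that was never marked at 500 mg. Its gene lies on chromosome VII at 876669 to 878192 on the minus strand, 517 bp from a tRNA gene upstream. The summits between them stood a median of 414 bp from the CRH1 start codon and 104 bp from the tRNA gene. Which of the 2 genes they belong to was not tested. Peaks covered 165, 0 and 172 bp of its window at 4 mg, 178, 167 and 165 bp at 20 mg, 189, 210 and 194 bp at 100 mg, and 1, 6 and 4 bp at 500 mg. The 500 mg libraries lay below all others but 4 mg replicate 2, which is 1 of the 3 libraries without whole recovered pileups, and the exact permutation test gave p = 0.00864 (adjusted p = 0.231). Summits were called in 2, 3, 3 and 0 of 3 libraries at 4, 20, 100 and 500 mg, 398 to 438 bp upstream. Over its coding sequence, the 4 mg libraries averaged 27.0 ± 12.2%, those of 20 mg 57.7 ± 8.28%, those of 100 mg 33.3 ± 3.98% and those of 500 mg 46.4 ± 1.27% (SD, n = 3 each; exact permutation p = 0.000714, adjusted p = 0.0816). The 20 mg libraries, at 66.3, 49.7 and 57.2%, stood above all others. Mean coding coverage of all genes was also highest at 20 mg, at 28.4%. The part of this in the CRH1 values was not tested.

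A promoter marked in 3 of 3 libraries at a lower biomass and 0 of 3 at 500 mg was seen at 20 mg for CRH1 alone, 1 of 33 beside 2.05% of all genes. At 100 mg it was seen for CRH1 and TIR4, 2 of 33 beside 1%, and at 4 mg for 0 of 33 beside 0.55%. The TIR4 window was nonetheless covered over 238, 255 and 270 bp at 100 mg, and over 217, 232 and 213 bp at 500 mg, and its 500 mg summits lay beyond the window edge.

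In SUN4 and DAN1 the window values were the edge of the coding peak reaching past the start codon. The base before the start codon was inside a peak in 11 libraries at SUN4 and in 12 at DAN1. SUN4 had 10, 0 and 21 bp covered at 4 mg, 31, 40 and 46 bp at 20 mg, 4, 32 and 8 bp at 100 mg, and 58, 53 and 77 bp at 500 mg (exact permutation p = 0.00169, adjusted p = 0.197). DAN1 had 23, 34 and 64 bp at 4 mg, 25, 48 and 44 bp at 20 mg, 27, 8 and 3 bp at 100 mg, and 75, 78 and 77 bp at 500 mg (exact permutation p = 0.00623, adjusted p = 0.231). At both genes the 3 libraries at 500 mg were the highest of the 12. The mean window coverage of all genes was 103, 116, 102 and 114 bp at 4, 20, 100 and 500 mg, and the part of this in the values was not tested.

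**Figure D5:**
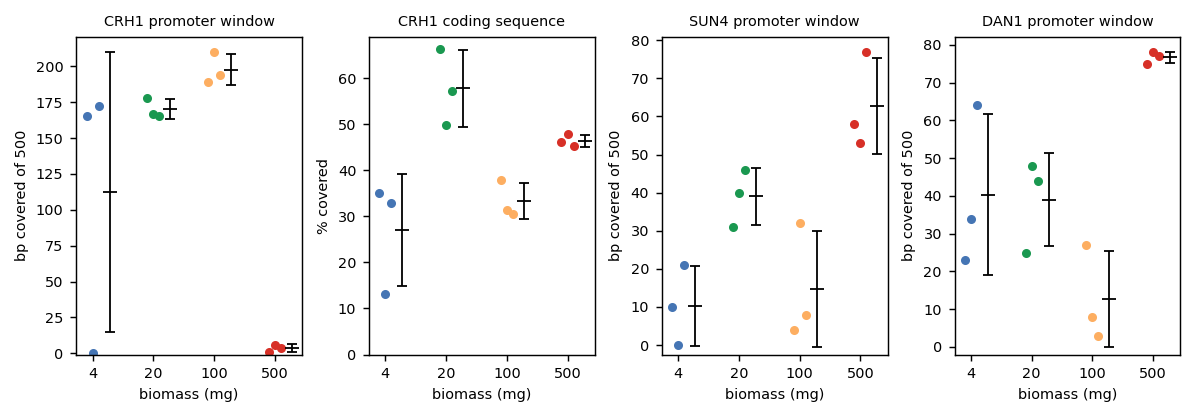
Window coverage (bp of 500) of CRH1, SUN4 and DAN1 and coding coverage (%) of CRH1 by biomass in mg; points are single libraries and the black mark beside them is the mean ± SD of 3. CRH1 window coverage is near 0 at 500 mg, and at SUN4 and DAN1 the 500 mg libraries are the highest.

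Window coverage had an unadjusted p under 0.05 at 5 further genes. The base before the start codon was inside a peak in 10 libraries at CWP2, 9 at HSP150, 5 at FKS1, 3 at SIM1 and 0 at GAS3. In those libraries part of the covered window belonged to a peak that reached into the coding sequence, and this part was not separated. At GAS3 the upstream gene SCJ1 ends 312 bp from the start codon, and no summit was called between them. For CWP2, peaks covered 242, 205 and 281 bp at 4 mg, 149, 131 and 243 bp at 20 mg, 156, 215 and 197 bp at 100 mg, and 291, 323 and 289 bp at 500 mg. For HSP150 they covered 142, 107 and 180 bp at 4 mg, 146, 104 and 149 bp at 20 mg, 118, 160 and 89 bp at 100 mg, and 182, 241 and 226 bp at 500 mg. At both genes the 500 mg libraries were the 3 highest of the 12. SIM1 had 277, 244 and 295 bp at 4 mg, 294, 282 and 299 bp at 20 mg, 270, 266 and 244 bp at 100 mg, and 292, 336 and 340 bp at 500 mg. GAS3, a transferase relative of GAS1, had 129, 111 and 157 bp at 4 mg, 176, 168 and 157 bp at 20 mg, 111, 142 and 147 bp at 100 mg, and 165, 197 and 188 bp at 500 mg. The 500 mg means of SIM1 and GAS3 were the highest of the 4 biomasses, and 1 library of each overlapped the 20 mg values. That SIM1 library, with 292 bp, also lay below 4 mg replicate 3, with 295 bp. FKS1 differed from these genes, with 4, 0 and 0 bp at 4 mg, 26, 48 and 16 bp at 20 mg, 0, 0 and 2 bp at 100 mg, and 0, 6 and 19 bp at 500 mg, highest on average at 20 mg.

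For the coding sequence, CWP1 was covered over 90.6 ± 15.7% with 4 mg, 87.6 ± 21.4% with 20 mg, 33.8 ± 29.4% with 100 mg and 100 ± 0% with 500 mg (SD, n = 3 each; exact permutation p = 0.0123, adjusted p = 0.125). Its values at 100 mg were 0, 47.4 and 53.9%, below all other libraries, and the first was the library with the fewest peaks. CIS3 had 95.5, 89.8 and 92.3% at 4 mg, 90.6, 91.2 and 93.4% at 20 mg, 90.2, 79.5 and 33.3% at 100 mg, and 95.9, 98.7 and 94.0% at 500 mg, with 100 mg replicate 3 far below the rest. TIR4 had 77.9, 67.1 and 73.9% at 4 mg, 90.1, 88.4 and 74.9% at 20 mg, 65.0, 64.1 and 71.2% at 100 mg, and 77.0, 75.8 and 75.3% at 500 mg. UTR2, a partner of CRH1 in linking chitin to glucan, had 29.3, 10.9 and 43.4% at 4 mg, 70.2, 46.0 and 45.2% at 20 mg, 30.5, 40.6 and 42.6% at 100 mg, and 44.4, 40.8 and 44.8% at 500 mg. For both, the mean was highest at 20 mg. FKS1 had 13.0, 2.65 and 10.4% at 4 mg, 16.1, 15.8 and 19.6% at 20 mg, 6.57, 8.04 and 7.97% at 100 mg, and 6.84, 11.3 and 9.96% at 500 mg, with all 20 mg libraries above the rest. GSC2 had 0, 2.64 and 10.6% at 4 mg, 11.6, 16.9 and 15.4% at 20 mg, 0, 9.23 and 0% at 100 mg, and 18.0, 20.1 and 16.0% at 500 mg, and its 20 and 500 mg libraries lay above all at 4 and 100 mg. Mean coding coverage of all genes was 22.2, 28.4, 21.6 and 25.1% in the same order. Low values at 4 and 100 mg and high values at 20 mg were thus shared with the whole lists. The part of this in the wall gene values was not tested. EXG1 was the gene of 8 whose summit position had an unadjusted p under 0.05 (exact permutation p = 0.0484, adjusted p = 0.704). Leaving out 1 library in turn moved the unadjusted p above 0.05 for CWP2, GAS3, HSP150 and SIM1 in window coverage, for CIS3, CWP1, FKS1, TIR4 and UTR2 in coding coverage, and for EXG1.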

How the data were processed

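FAIRE and input DNA of BY4742 colonies had been sequenced as 75 bp single-end reads on a NextSeq 500, per the labels' protocols. Bowtie2 2.2.8, SAMtools 1.4, bedtools 2.26.0 and MACS2 2.1.1.20160309 and build R64 (sacCer3) are named in the submitters' processing notes, without settings. Per the labels, each FAIRE and input pair gave its own peak list, so replicates were not pooled, and the 12 inputs entered only in this way. The deposited fold enrichment, a ratio made by the authors' peak caller, was used only within a list or as a median over lists. The deposited −log10 p-value ranked the peaks of a list, the deposited −log10 q-value served as a filter, and the deposited score, 10 times that −log10 q, was not used further. The lowest −log10 q per list lay between 1.00 and 1.52. Read totals were not analysed here. The FAIRE pileup recovered from fold enrichment and −log10 p was whole within 0.02 in 100% of peaks of 9 libraries and in 3.73 to 4.00% in the other 3, and reads per bp were derived from the recovered input level. In those 3 libraries this value need not be a depth, since the scaling is not given.

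Genes were placed with RefSeq's R64 annotation and their strands read from the systematic names, and 6000 of 6002 genes had a full window. Its gene models hold no untranslated regions. Peak positions were made 1-based. Per library and gene the summits in the window (in bp from the start codon, strongest by −log10 p), the window bases covered, the largest overlap with the coding sequence (50 bp or more) and the percent of the coding sequence covered were computed with Python 3.11.15, numpy 2.4.6, pandas 2.3.3 and scipy 1.17.1. Genes were tested over 4 biomasses by an exact permutation test over 369600 assignments on the between-group sum of squares, with Benjamini-Hochberg adjustment over all genes tested and a threshold of 0.05. Genes with the same value in all libraries were not tested, and position was tested for promoters marked in all 12. The routine was checked on simulated data. Nothing in the labels says that the replicates came from separate plates, so p-values measure the spread between these libraries. The members and lists were chosen with earlier results of these data known. Values per library are given for genes marked in all 12 libraries or with an unadjusted p under 0.05, and of each related list the 2 strongest marked in all 12. Other windows, overlaps, peak strengths, each library left out and a replicate block were tried.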

Additional observations from a re-analysis of the deposited data

How the results depend on the processing

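Window length decided which promoters were counted. With 250 bp, 0 of 33 wall genes were marked in all 12 libraries (2.03% of all genes, whose share stands in parentheses hereafter) and 33 in none (83.8%), and the difference of 100 mg minus 500 mg was 0 points. With 1000 bp they were 19 (26.2%) and 4 (31.4%), and the difference of 20 mg minus 500 mg was 13.1 points. Counting any overlap of 50 bp or more gave 17 (23.6%) and 6 (44.2%) and turned the difference of 4 mg minus 500 mg to -2.02 points, and a summit up to the next gene, added after seeing the data, gave 16 (12%) and 9 (67.1%). With the 3000 strongest peaks, 5 were marked in all 12 (5.58%) and 3 had a peak over the gene in all 12 (12%). The count with a peak over the gene was 14 (24%) with a −log10 q of 5 or more and 9 (5.95%) with an overlap by 1 peak of at least 50% of the coding sequence. The cause of these shifts was not tested.

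Leaving out 1 library gave 8 to 9 wall genes marked in all remaining libraries, 16 to 18 in none and 25 to 28 with a peak over the gene in all, and 0 wall genes past adjustment in each of the 4 measures. Replicate numbers did not pair libraries: same-number deviations correlated between -0.489 and 0.214, and 1 of 12 libraries correlated best with its own number. A replicate block left 0 wall genes past adjustment, with 8 in window coverage (10.8% of all genes), 7 in coding coverage (17.4%) and 0 in marking (0.155%) and position (5.31%) at an unadjusted p under 0.05. Of the results on single genes, 243 stayed within their spread and 87 moved. Depth in reads is unknown, so no interval or lower limit is given for a missing peak.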
